A study of Homo sapiens with 6 samples.

Results

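The axon guidance ligands and receptors of 4 atypical teratoid rhabdoid tumor (AT/RT) cell lines were described, as a set of 69 genes among the 36532 genes of the deposited transcript files. The members were chosen by gene symbol alone: the Eph receptors and ephrins, the semaphorins of classes 3 to 7, the plexins, the neuropilins, the slits and Robo receptors, the netrins, DCC and the UNC5 receptors. The set held 14 Eph receptors, 8 ephrins, 20 semaphorins, 9 plexins, 2 neuropilins, 3 slits, 4 Robo receptors, 4 netrins and 5 netrin receptors. The rule itself uses no measured value, although it was set with earlier results of these data known.

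The study sequenced total RNA of the lines CHLA 02 and CHLA 04 as well as CHLA 05 and CHLA 06, all established from human AT/RT, an embryonal tumor of the central nervous system that usually lacks SMARCB1, a subunit of the SWI/SNF chromatin remodeling complex. A single library was made of CHLA 02 and of CHLA 05 and 2 technical replicates of CHLA 04 and of CHLA 06, so that 6 libraries stood for 4 biological samples. All lines came from the ATCC and were kept in DMEM:F12 with EGF at 20 ng/mL, basic FGF at 20 ng/mL and B-27 at 2%, with no other treatment, and no library held cells with SMARCB1 restored. The study placed CHLA 02, CHLA 04 and CHLA 05 in the neurogenic group and CHLA 06 in another group, which was not used here. Each group is therefore 1 cell line, a line is not a tumor, and differences between lines carry no test. Errors are the SD between technical replicates, and the spread between cultures of a line was not measured.

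Axon guidance genes encode the cues and receptors that steer growing axons and migrating neurons in the developing brain. Ephrins are bound to the cell surface and signal to Eph receptor tyrosine kinases on the neighbouring cell, with signals running in both directions. Semaphorins signal through plexins, and those of class 3, which are secreted, mostly need a neuropilin as co-receptor. Slits are secreted repellents that bind Robo receptors, and netrins attract through DCC or repel through the UNC5 receptors.

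Levels are given in transcripts per 1e+06 (TPM), summed over the transcripts of a gene, which scales for transcript length, so that genes may be compared with each other. The depth was 10265899 to 20520229 reads on transcripts, as recovered from the steps of the TPM values, and 1 read on a transcript of 1 kb was worth 0.117 to 0.236 TPM. Differences between lines are of log2(TPM + 2) of the line means, and a difference over 1 is called past the fold. The added 2 understates the change of genes at low TPM. SMARCB1 itself was at 13.5 to 26.2 TPM in the 6 libraries. The study describes the lines as without expression of SMARCB1, and whether these transcripts are whole or translated was not tested. Of the marker lists, the fibroblast list (COL1A1, DCN and PDGFRB) summed to 416 TPM in CHLA 02, 12.9 to 20.6 in CHLA 04, 34.9 in CHLA 05 and 493 to 648 in CHLA 06. COL1A1 made up most of the sum in CHLA 02 and CHLA 06, while PDGFRB ran the other way, with 23.4 TPM in CHLA 05, 16.1 and 11.9 TPM in CHLA 04, 9.41 TPM in CHLA 02 and 4.45 and 3.85 TPM in CHLA 06. The epithelial list (EPCAM, KRT8 and KRT18) summed to 82.1 TPM in CHLA 02, 0.360 at most in CHLA 04 and CHLA 05, and 109 to 110.2 in CHLA 06. The 6 neural progenitor markers summed to 14.7 and 21.3 TPM in CHLA 06 but to 908 TPM in CHLA 02, 1705 TPM in CHLA 05 and 2594 and 4366 TPM in CHLA 04. FABP7 made up most of the sum outside CHLA 06, at 756 to 4102 TPM, and was at 1.43 TPM at most in CHLA 06. PAX6 and MSI1 were also lower in CHLA 06, at 0.937 and 8.26 TPM at most. NES, however, had means of 8.87 TPM in CHLA 04 and 7.86 TPM in CHLA 06. SOX2 exceeded 0.470 TPM in CHLA 05 alone, and PROM1 did not exceed 3.64 TPM. The 6 neuronal markers summed to 323 to 1135 TPM over all libraries, and TUBB3 and MAP2 made up most of each sum. DCX, STMN2 and RBFOX3 did not exceed 1.21 TPM in any library, and SYP was lowest in CHLA 06, at 4.18 and 2.32 TPM. TUBB3 had its highest mean in CHLA 06, at 311 and 455 TPM, but MAP2 had a mean of 6.31 TPM there and means of 298 to 915 TPM in the other lines. The astrocyte list reached 209 TPM in CHLA 05 and was at 0.417 TPM at most in CHLA 06. The 3 endothelial markers summed to 3.70 TPM at most and the 3 leukocyte markers to 0.315 TPM at most, with AIF1 at 0 in every library. The part of these marker differences in the results below was not tested. The library of CHLA 02 stood apart in 1 respect, since its level was between those of CHLA 04 and CHLA 06 in 93.7% of the 1854 genes on which these differed by over 2.

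Much of the guidance system was transcribed in each line. CHLA 05 had 55 members at 1 TPM or more, CHLA 02 had 52, CHLA 04 had 50 and CHLA 06 had 42, and 34 members were at this level in all lines. In this order of lines the shares were 79.7%, 75.4%, 72.5% and 60.9% of the 69 members, and 39.2%, 39.7%, 38.7% and 37.3% of all genes of the files. The 34 were 49.3% of the members, where 33.4% of all genes were at this level in all lines. The 6 members under 1 TPM in all lines were EPHA1, EPHA8, NTN3, NTN5, SEMA6D and UNC5D. EPHA1 had no read in any library, and the highest value among the other 5 was 0.911 TPM. At the depth of the files a count of 0 still allows 3 reads in a library. The summed level of the members was 3512 TPM in CHLA 05, 2552 TPM in CHLA 04, 2364 TPM in CHLA 06 and 2337 TPM in CHLA 02.

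**Figure D1:**
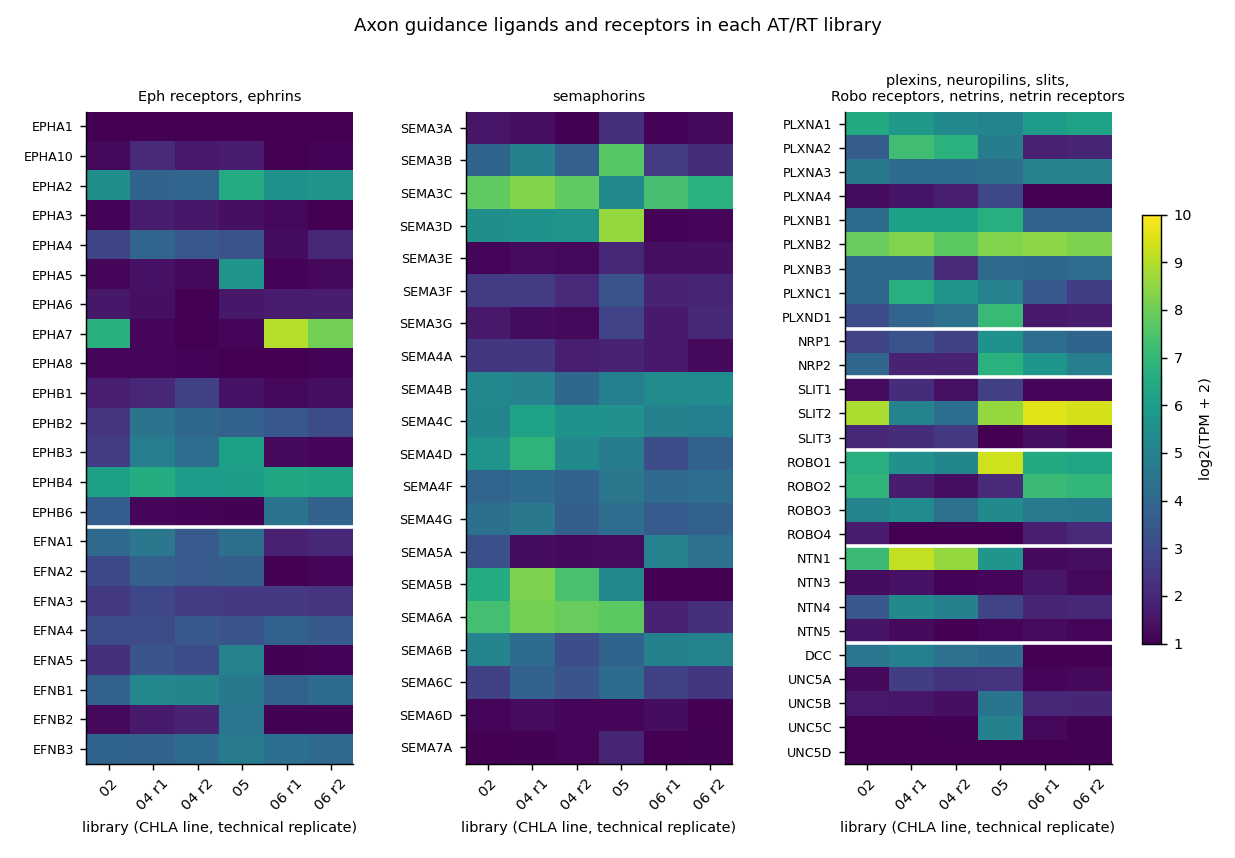
Level of each of the 69 members in each of the 6 libraries, as log2(TPM + 2) on a color scale from 1 (0 TPM) to 10, in 9 families separated by white lines. Columns are CHLA lines and r1 and r2 are technical replicates; PLXNB2 and EPHB4 are about even across the columns, while EPHA7, ROBO2, NTN1 and SEMA5B change from the bottom of the scale to above 6.

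Many members differed widely between the lines. The range of a gene is its highest minus its lowest line mean on the log2(TPM + 2) scale. Of the 63 members that reached 1 TPM in a library, 45 had a range over 1, where 42.2% of the 16343 genes tested did, and 30 had a range over 2, where 16.2% of all genes did. Without CHLA 02, a choice made after seeing the data, 43 members had a range over 1 (40.4% of all genes) and 30 a range over 2 (15.9%). The median range was 1.56 over all 69 members and 1.92 over the 63, and that of all tested genes was 0.866. The filter favors members that are high in some line, and these medians and counts are descriptions only. The 3 widest were NTN1 with a range of 7.62, EPHA7 with 7.55 and SEMA3D with 7.47.

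**Figure D2:**
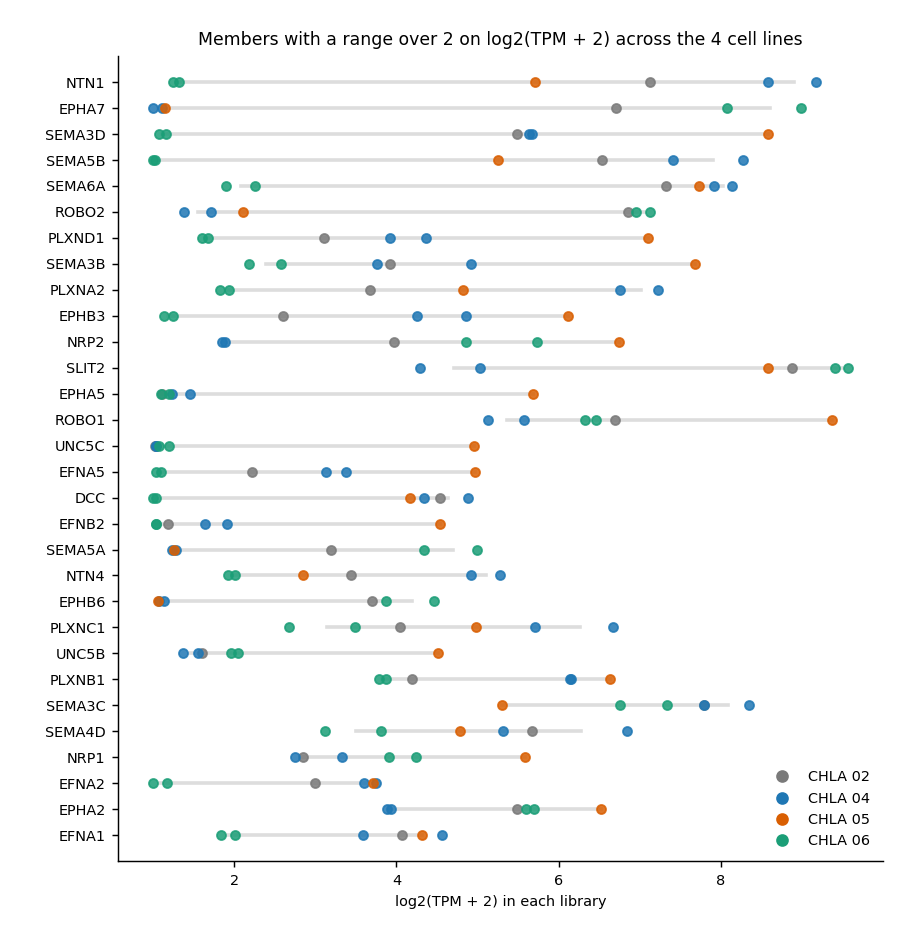
The 30 members with a range over 2, one row each and the widest at the top, with log2(TPM + 2) on the horizontal axis. Points are the 6 libraries colored by line and grey bars join the lowest and highest line means; the CHLA 05 point is the rightmost for EPHA5, UNC5C, EFNB2, ROBO1 and SEMA3D, and the CHLA 06 points are the leftmost for NTN1, SEMA5B, SEMA6A and DCC.

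Among the Eph receptors, which are the largest family of receptor tyrosine kinases, the widest difference was that of EPHA7 (ENSG00000135333, chr6:93240020-93419547, minus strand), a receptor of the ephrin-A class that patterns the cortex. EPHA7 was at 506 and 268 TPM in the CHLA 06 replicates, at 102 TPM in CHLA 02, at 0.221 TPM in CHLA 05 and at 0.161 and 0 TPM in the CHLA 04 replicates. The CHLA 04 libraries held 2 and 0 reads of it and the CHLA 05 library 7, against 4024 in CHLA 02 and 23148 and 13758 in CHLA 06. The difference of CHLA 06 from CHLA 04 was 7.55, with line means of 387 ± 169 and 0.0807 ± 0.114 TPM (SD, n = 2 technical replicates each). EPHB6 (ENSG00000106123, chr7:142855061-142871094, plus strand), an Eph receptor that lacks kinase activity, was split in the same way. It was at 10.9 TPM in CHLA 02 and 20.1 and 12.6 TPM in CHLA 06, and at 0.2003 TPM or less in the other 3 libraries. CHLA 02 and CHLA 06 were above the other lines on both genes, and CHLA 06 was in turn 1.90 above CHLA 02 on EPHA7 and 0.50 on EPHB6.

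Sequences upstream of the start were read for a few members whose levels moved from near 0 to high. SEMA5A (below) had the same split as EPHA7, and the windows of the pair are shown for that reason, 5′ to 3′ on the strand of the gene, from RefSeq on GRCh38.p14, with each CG dinucleotide in capitals. The EPHA7 window is chr6:93419560-93419809 on the minus strand and the SEMA5A window is chr5:9546076-9546325 on the minus strand.
EPHA7: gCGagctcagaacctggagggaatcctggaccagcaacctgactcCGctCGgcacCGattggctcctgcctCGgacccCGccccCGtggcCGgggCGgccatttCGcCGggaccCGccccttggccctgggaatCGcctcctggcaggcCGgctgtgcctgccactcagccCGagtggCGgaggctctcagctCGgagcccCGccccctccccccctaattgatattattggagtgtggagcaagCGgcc
SEMA5A: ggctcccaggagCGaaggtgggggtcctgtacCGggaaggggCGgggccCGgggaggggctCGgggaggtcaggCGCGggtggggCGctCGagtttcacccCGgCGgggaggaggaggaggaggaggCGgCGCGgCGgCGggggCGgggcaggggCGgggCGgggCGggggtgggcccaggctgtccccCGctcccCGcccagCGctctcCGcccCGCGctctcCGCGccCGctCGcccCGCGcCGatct
The EPHA7 window held 19 CG dinucleotides at 69.6% G and C, and the SEMA5A window held 33 at 82%. The GC box GGGCGG, read on either strand, occurred 4 times in the first and 7 times in the second, and TATAAA in neither. EPHA7 has other RefSeq windows, and that at chr6:93417383-93417632 held 2 TATAAA, 14 CG dinucleotides and 1 GGGCGG.

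The other Eph receptors past a range of 2 had other splits. EPHA5 (ENSG00000145242, chr4:65319563-65670495, minus strand), a receptor of retinal and hippocampal axons, was at 49.3 TPM (1827 reads) in CHLA 05 and at 0.734 TPM or less in the 5 libraries of the other lines. EPHB3 (ENSG00000182580, chr3:184561784-184582409, plus strand), a receptor of commissural axons, was at 67.2 TPM in CHLA 05, 27.1 and 17.0 TPM in CHLA 04, 4.05 TPM in CHLA 02 and 0.366 and 0.193 TPM in CHLA 06. The levels of EPHB3 fell in this order of lines with a step past the fold between each line and the next. EPHA2 (ENSG00000142627, chr1:16124337-16156087, minus strand), which is often high in epithelial and glial tumors, was at 89.8 TPM in CHLA 05, 46.6 and 49.8 TPM in CHLA 06, 42.9 TPM in CHLA 02 and 12.7 and 13.2 TPM in CHLA 04. Its difference of CHLA 05 from CHLA 02 was 1.03, at the edge of the fold, and CHLA 02 and CHLA 06 did not differ past it. EPHB4, best known from veins, was at 60.3 to 92.6 TPM in all libraries and had the narrowest range of the tested members, 0.27. EPHA4 had a range just under 2, with 0.465 and 2.08 TPM in CHLA 06 and 5.30 to 13.4 TPM in the other lines, and EPHB2 was at 3.14 TPM in CHLA 02 and 6.58 to 20.3 TPM elsewhere. EPHB1 did not exceed 4.92 TPM and EPHA3, EPHA6 and EPHA10 did not exceed 2.25 TPM in any library. Summed over the family, Eph receptors were at 539.7 TPM in CHLA 06, 293 TPM in CHLA 05, 239 TPM in CHLA 02 and 147 TPM in CHLA 04, and EPHA7 made up 387 TPM of the CHLA 06 sum.

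The EPHA5 window chr4:65670496-65670739 on the minus strand, of 244 bases, is given because this gene separated CHLA 05 from every other library.
EPHA5: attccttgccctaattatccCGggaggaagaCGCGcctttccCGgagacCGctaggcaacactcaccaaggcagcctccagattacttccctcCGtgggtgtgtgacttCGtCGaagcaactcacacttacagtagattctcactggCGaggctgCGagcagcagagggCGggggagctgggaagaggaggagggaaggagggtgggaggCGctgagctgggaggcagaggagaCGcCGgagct
This window held 14 CG dinucleotides at 61.1% G and C and 1 GGGCGG.

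The ephrins were lowest in CHLA 06, where 5 of 8 reached 1 TPM, while 7 did in CHLA 02 and 8 each in CHLA 04 and CHLA 05. EFNA5 (ENSG00000184349, chr5:107376889-107670895, minus strand), the repulsive ephrin of the retinotectal map, was at 29.4 TPM in CHLA 05, 8.35 and 6.77 TPM in CHLA 04, 2.65 TPM in CHLA 02 and 0.0504 and 0.141 TPM in CHLA 06. EFNB2 (ENSG00000125266, chr13:106489731-106535114, minus strand), a transmembrane ephrin also known from arteries, was at 21.2 TPM in CHLA 05 and at most 1.75 TPM elsewhere. Both genes were at their highest in CHLA 05, past the fold from each other line. EFNA1 (ENSG00000169242, chr1:155127460-155134857, plus strand) was at 14.7 TPM in CHLA 02, 21.5 and 10.02 TPM in CHLA 04, 17.9 TPM in CHLA 05, and 1.56 and 2.03 TPM in CHLA 06. EFNA2 (ENSG00000099617, chr19:1286154-1300237, plus strand) was at 0 and 0.247 TPM in CHLA 06, at 5.99 TPM in CHLA 02, at 11.5 and 10.1 TPM in CHLA 04 and at 11.1 TPM in CHLA 05. For these ephrins CHLA 06 stood below the other 3 lines, which were within the fold of each other. The ephrin with the highest mean over the lines was EFNB1 (ENSG00000090776, chrX:68828997-68842147, plus strand), a transmembrane ephrin of craniofacial development. EFNB1 was at 33.8 and 31.8 TPM in CHLA 04, 22.8 TPM in CHLA 05, 12.01 and 15.6 TPM in CHLA 06 and 11.9 TPM in CHLA 02. EFNA3, EFNA4 and EFNB3 had ranges under 1. EFNA3 shares 44.7% of its exonic bases with another annotated gene on the same strand, RP11-540D14.8, and its value is uncertain for that reason.

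Semaphorins gave the largest summed levels over the 4 lines, with 1055.7 TPM in CHLA 05, 1049.98 TPM in CHLA 04, 723 TPM in CHLA 02 and 305 TPM in CHLA 06. Of the secreted class 3, SEMA3C (ENSG00000075223, chr7:80742538-80922359, minus strand), a semaphorin with attractive effects on cortical axons, had the highest mean of the family. SEMA3C was at 219 TPM in CHLA 02, 322 and 219 TPM in CHLA 04, 159 and 106 TPM in CHLA 06 and 37.3 TPM in CHLA 05. SEMA3D (ENSG00000153993, chr7:84995553-85186855, minus strand) took the opposite course, with 381 TPM in CHLA 05, 42.8 TPM in CHLA 02, 47.6 and 48.9 TPM in CHLA 04 and only 2 and 6 reads (0.101 and 0.226 TPM) in CHLA 06. CHLA 05 was thus the lowest line for the one gene and the highest for the other, past the fold from each other line in both cases. SEMA3B (ENSG00000012171, chr3:50267558-50277546, plus strand), which has been studied as a tumor suppressor of the lung, was at 203 TPM in CHLA 05, 28.2 and 11.5 TPM in CHLA 04, 13.1 TPM in CHLA 02 and 3.98 and 2.53 TPM in CHLA 06. Its CHLA 04 replicates lay more than the fold apart, and without CHLA 04 replicate 1 its difference of CHLA 06 from CHLA 04 moved from -2.06 to -1.36. SEMA3A, SEMA3F and SEMA3G were also highest in CHLA 05, at 2.70, 7.98 and 5.05 TPM, and SEMA3E did not exceed 2.00 TPM.

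Of the membrane-bound semaphorins, SEMA5B, SEMA6A and SEMA4D were lowest in CHLA 06. SEMA5B (ENSG00000082684, chr3:122909193-123028605, minus strand), which repels cortical and sensory axons, was at 90.5 TPM in CHLA 02, 307 and 167 TPM in CHLA 04, 36.1 TPM in CHLA 05 and 0 and 0.0256 TPM in CHLA 06, where the 2 libraries held 1 read between them. Without CHLA 04 replicate 1 the difference of CHLA 04 from CHLA 02 moved from 1.37 to 0.87, under the fold. SEMA6A (ENSG00000092421, chr5:116443616-116574934, minus strand), a ligand of class A plexins in migrating granule cells, was at 158 TPM in CHLA 02, 278 and 239.9 TPM in CHLA 04, 211 TPM in CHLA 05 and 1.74 and 2.76 TPM in CHLA 06. Against the other lines CHLA 06 differed by -6.89 to -4.24 on SEMA5B and by -5.94 to -5.23 on SEMA6A. SEMA4D (ENSG00000187764, chr9:89360787-89498130, minus strand), the ligand of PLXNB1, was at 48.8 TPM in CHLA 02, 113 and 37.7 TPM in CHLA 04, 25.4 TPM in CHLA 05 and 6.69 and 12.03 TPM in CHLA 06. Its CHLA 04 replicates also lay more than the fold apart. Without replicate 1 of CHLA 04, its difference of CHLA 05 from CHLA 04 moved from -1.50 to -0.53, and that of CHLA 06 from CHLA 04 from -2.77 to -1.80. SEMA5A (ENSG00000112902, chr5:9035026-9546075, minus strand), which resembles SEMA5B in its thrombospondin repeats, went the other way. It was at 29.7 and 18.3 TPM in CHLA 06, 7.18 TPM in CHLA 02 and 0.442 TPM or less in CHLA 04 and CHLA 05. SEMA6B was at 29.0 to 30.5 TPM in CHLA 02 and CHLA 06 and 6.65 to 15.5 TPM in CHLA 04 and CHLA 05. SEMA4B, SEMA4C, SEMA4F and SEMA4G had ranges under 1 at 10.3 TPM or more in every library. SEMA4G shares 27.4% of its exonic bases with genes of the opposite strand, and whether the counting used strand is not stated. SEMA6C was at 3.51 to 16.1 TPM, SEMA4A did not exceed 3.56 TPM, and SEMA7A was above 1 TPM in CHLA 05 alone, at 1.81 TPM.

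The SEMA5B window chr3:123027813-123028013 on the minus strand, of 201 bases, is shown as that of the semaphorin with the widest gap between CHLA 04 and CHLA 06.
SEMA5B: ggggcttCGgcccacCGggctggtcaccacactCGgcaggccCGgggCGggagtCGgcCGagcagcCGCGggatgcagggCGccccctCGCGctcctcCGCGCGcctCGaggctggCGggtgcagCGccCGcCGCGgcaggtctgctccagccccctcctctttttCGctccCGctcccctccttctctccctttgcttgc
It held 23 CG dinucleotides at 75.6% G and C and 1 GGGCGG.

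Plexins, the receptors of semaphorins, were nearly all transcribed, with 8 of 9 at 1 TPM or more in all lines. PLXNB2 (ENSG00000196576, chr22:50274979-50307627, minus strand), a broadly used receptor of class 4 semaphorins, had the highest mean of the family. PLXNB2 was at 235 TPM in CHLA 02, 309 and 209 TPM in CHLA 04, 308 TPM in CHLA 05 and 346 and 308 TPM in CHLA 06, a range of 0.47 that no pair of lines exceeded. PLXNA2 (ENSG00000076356, chr1:208022242-208244320, minus strand), a receptor of SEMA6A, was at 148 and 105 TPM in CHLA 04, 26.2 TPM in CHLA 05, 10.7 TPM in CHLA 02 and 1.54 and 1.83 TPM in CHLA 06. PLXNC1 (ENSG00000136040, chr12:94148723-94307675, plus strand), the receptor of SEMA7A, was at 99.4 and 50.2 TPM in CHLA 04, 29.4 TPM in CHLA 05, 14.5 TPM in CHLA 02 and 9.25 and 4.39 TPM in CHLA 06. CHLA 04 was highest and CHLA 06 lowest for both, although the PLXNC1 difference of CHLA 05 from CHLA 04 moved from -1.29 to -0.73 without CHLA 04 replicate 1. PLXND1 (ENSG00000004399, chr3:129555175-129606818, minus strand), a receptor of SEMA3E known from vessels, was at 135 TPM in CHLA 05, 13.2 and 18.6 TPM in CHLA 04, 6.65 TPM in CHLA 02 and 1.03 and 1.198 TPM in CHLA 06. PLXNB1 (ENSG00000164050, chr3:48403854-48430051, minus strand), the receptor of SEMA4D, was at 96.9 TPM in CHLA 05, 68.7 and 69.0 TPM in CHLA 04, 16.3 TPM in CHLA 02 and 11.7 and 12.6 TPM in CHLA 06. CHLA 04 and CHLA 05 were together above CHLA 02 and CHLA 06 on PLXNB1, with differences of 1.95 and 2.43 from CHLA 02. PLXNA1 was lowest in CHLA 05, at 31.1 TPM against 37.0 to 88.1 TPM, PLXNA3 had a range under 1, and PLXNA4 exceeded 1.41 TPM in CHLA 05 alone, at 5.66 TPM. PLXNB3 was at 13.9 to 16.6 TPM in 5 libraries and at 2.32 TPM in CHLA 04 replicate 2, and shares 20.4% of its exonic bases with SRPK3.

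PLXNA2 and NTN4 (below) were both highest in CHLA 04, and their windows chr1:208244385-208244634 on the minus strand and chr12:95790765-95791014 on the minus strand are given together.
PLXNA2: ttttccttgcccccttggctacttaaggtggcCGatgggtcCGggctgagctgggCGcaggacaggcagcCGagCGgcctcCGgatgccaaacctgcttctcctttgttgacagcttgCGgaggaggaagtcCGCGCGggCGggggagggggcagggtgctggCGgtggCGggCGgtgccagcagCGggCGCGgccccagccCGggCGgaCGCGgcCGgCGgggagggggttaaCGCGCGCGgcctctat
NTN4: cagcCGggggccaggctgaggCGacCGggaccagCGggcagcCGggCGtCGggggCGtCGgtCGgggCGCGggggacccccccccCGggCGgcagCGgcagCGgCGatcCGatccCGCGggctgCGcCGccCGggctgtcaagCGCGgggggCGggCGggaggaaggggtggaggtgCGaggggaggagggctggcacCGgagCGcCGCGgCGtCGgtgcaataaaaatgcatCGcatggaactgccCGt
They held 27 and 36 CG dinucleotides and 3 and 4 GGGCGG.

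Of the neuropilins, which bind class 3 semaphorins and VEGF, both were highest in CHLA 05. NRP1 (ENSG00000099250, chr10:33177492-33336262, minus strand) was at 45.8 TPM in CHLA 05, 16.9 and 13.0 TPM in CHLA 06, 8.02 and 4.71 TPM in CHLA 04 and 5.18 TPM in CHLA 02. NRP2 (ENSG00000118257, chr2:205681990-205798133, plus strand) was at 105 TPM in CHLA 05, 51.3 and 26.9 TPM in CHLA 06, 13.7 TPM in CHLA 02 and 1.69 and 1.60 TPM in CHLA 04. The order below CHLA 05 is less firm. The difference of CHLA 06 from CHLA 04 in NRP1, 1.02, was under the fold without CHLA 04 replicate 2 (0.76) or without CHLA 06 replicate 1 (0.84), and that of CHLA 06 from CHLA 02 in NRP2 moved from 1.39 to 0.88 without CHLA 06 replicate 1. CHLA 05 thus carried the highest level of the secreted SEMA3A, SEMA3B, SEMA3D, SEMA3E, SEMA3F and SEMA3G and of both neuropilins, and the lowest level of SEMA3C.

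The slit and Robo genes were among the most abundant members. SLIT2 (ENSG00000145147, chr4:20253260-20620561, plus strand), a midline repellent, was at 755 and 675 TPM in CHLA 06, 468 TPM in CHLA 02, 382 TPM in CHLA 05 and 30.6 and 17.6 TPM in CHLA 04. CHLA 05 and CHLA 06 differed from CHLA 04 by 3.88 and 4.78, and CHLA 04 from CHLA 02 by -4.17, while the other 3 lines were within the fold of each other. SLIT1 did not exceed 4.51 TPM and SLIT3 did not exceed 3.82 TPM. Of the receptors, ROBO1 (ENSG00000169855, chr3:78597240-79767815, minus strand) was at 657 TPM in CHLA 05, 101 TPM in CHLA 02, 86.0 and 78.4 TPM in CHLA 06 and 45.4 and 32.8 TPM in CHLA 04. ROBO2 (ENSG00000185008, chr3:75906695-77649964, plus strand), which lies beside ROBO1 on chromosome 3 with 947275 bp between them, was at 138 and 122 TPM in CHLA 06, 114 TPM in CHLA 02, 2.30 TPM in CHLA 05 and 1.29 and 0.600 TPM in CHLA 04. The neighbours differed in that ROBO1 was expressed in every line and highest in CHLA 05, whereas ROBO2 was high in CHLA 02 and CHLA 06 and at most 2.30 TPM in CHLA 04 and CHLA 05. ROBO3, a receptor of crossing axons, had a range of 0.59 at 18.4 to 40.0 TPM, and ROBO4, of endothelium, did not exceed 2.26 TPM. In CHLA 02, CHLA 05 and CHLA 06 a SLIT2 level of 382 TPM or more thus stood beside a ROBO1 level of 78.4 TPM or more, and in CHLA 04 SLIT2 was at 24.1 ± 9.20 TPM and ROBO1 at 39.1 ± 8.92 TPM (SD, n = 2 technical replicates).

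NTN1 (ENSG00000065320, chr17:9021542-9244000, plus strand), the secreted netrin of the floor plate, had the widest range of all members. NTN1 was at 574 and 379 TPM in CHLA 04, 137 TPM in CHLA 02, 50.4 TPM in CHLA 05, whereas the CHLA 06 replicates held 17 and 25 reads, or 0.369 and 0.492 TPM. With line means of 476 ± 138 and 0.430 ± 0.0867 TPM (SD, n = 2 technical replicates each), CHLA 06 differed from CHLA 04 by -7.62. DCC (ENSG00000187323, chr18:52340172-53535903, plus strand), the attractive netrin receptor, was at 21.2 TPM in CHLA 02, 27.5 and 18.3 TPM in CHLA 04, 16.0 TPM in CHLA 05 and 0 and 0.0448 TPM (2 reads) in CHLA 06. Ligand and receptor were thus both at the bottom of the scale in CHLA 06 and both transcribed in the other 3 lines. NTN4 (ENSG00000074527, chr12:95657807-95791152, minus strand), a netrin of basement membranes, was at 36.7 and 28.1 TPM in CHLA 04, 8.88 TPM in CHLA 02, 5.22 TPM in CHLA 05 and 1.79 and 2.03 TPM in CHLA 06. The repulsive receptors UNC5B and UNC5C were highest in CHLA 05. UNC5B (ENSG00000107731, chr10:71212570-71302864, plus strand) was at 20.8 TPM there, 2.12 and 1.89 TPM in CHLA 06, 1.03 TPM in CHLA 02 and 0.924 and 0.580 TPM in CHLA 04. UNC5C (ENSG00000182168, chr4:95162504-95549206, minus strand) was at 28.9 TPM in CHLA 05 and at most 0.293 TPM in the 5 other libraries. UNC5A was at 4.29 TPM in replicate 1 of CHLA 04 and 3.05 TPM in CHLA 05 and at 0.314 TPM or less in CHLA 02 and CHLA 06. None of DCC and the UNC5 receptors reached 1 TPM in all 4 lines. NEO1, a netrin-side gene outside the set, was at 52.9 to 149 TPM over the 6 libraries.

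Each pair of lines was then compared over the 63 tested members, and each count is read against the share of all 16343 tested genes past the fold in the same pair. The pairs share lines and are not independent. CHLA 04 differed from CHLA 02 in 21 members, 12 higher and 9 lower, against 16.9% of all genes (8.28% higher and 8.62% lower). CHLA 05 differed from CHLA 02 in 31 members, 21 higher and 10 lower, against 19.6% (10.6% and 9.03%). CHLA 06 differed from CHLA 02 in 20 members, 4 higher and 16 lower, against 9.3% (2.06% and 7.24%). These counts are 33.3%, 49.2% and 31.7% of the tested members. CHLA 05 differed from CHLA 04 in 26 members, 17 higher and 9 lower, against 16.9% (9.5% and 7.39%). CHLA 06 differed from CHLA 04 in 32 members, 10 higher and 22 lower, against 29.6% (12.3% and 17.3%). CHLA 06 differed from CHLA 05 in 36 members, 7 higher and 29 lower, against 25.8% (9.8% and 16%). The share of members past the fold was above that of all genes in each of the 6 pairs. Members lower in CHLA 06 were the larger part in the 3 pairs with that line, and all called genes leaned the same way. Against CHLA 02, 20.0% of called members and 22.2% of all called genes were higher in CHLA 06. Against CHLA 04 these shares were 31.25% and 41.57%, and against CHLA 05 they were 19.4% and 38.0%.

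**Figure D3:**
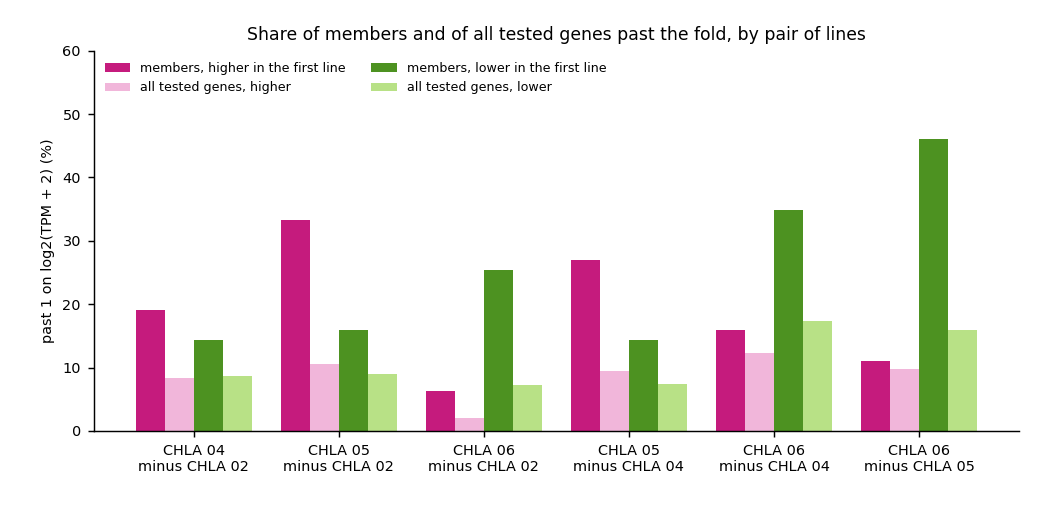
Percent of the 63 tested members (dark bars) and of all 16343 tested genes (pale bars) past 1 on log2(TPM + 2), higher (pink) or lower (green) in the first line of each pair. The tallest dark bar is that of members lower in CHLA 06 than in CHLA 05, 46.0% against 16% of all genes.

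The median difference of the members was -0.88 for CHLA 06 minus CHLA 05 and -0.50 for CHLA 06 minus CHLA 04, where the medians of all tested genes were -0.16 and -0.20. Without CHLA 04 replicate 1 the median for CHLA 06 minus CHLA 04 was -0.16 for the members and -0.16 for all tested genes, so that the lower median of the members rests on that library. The member median was 0.43 for CHLA 05 minus CHLA 02, where that of all genes was 0.08. After quantile normalization over the libraries the median of all genes moved by over 0.1 in the 3 pairs with CHLA 06, to 0.03 against CHLA 05, -0.03 against CHLA 04 and 0.09 against CHLA 02, and the medians of the members became -0.59, -0.31 and 0.02. The member median of CHLA 06 minus CHLA 02, -0.12 before, thus changed sign. Among all called genes the share higher in CHLA 06 went from 22.2% to 38.3% against CHLA 02 and from 38.0% to 49.6% against CHLA 05 under this scaling, and among called members from 20.0% to 27.8% and from 19.4% to 22.9%.

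The 45 members with a range over 1 were sorted by which lines lay above the widest gap between their 4 levels, a description made after their values were seen. The lines on the 2 sides of a gap need not differ past the fold. CHLA 05 was within the fold of CHLA 02 on SEMA3A (0.69) and SEMA3F (0.76). It was also within the fold of CHLA 04 on SEMA3F (0.96) and SLIT1 (0.84), and of CHLA 06 on SEMA3G. Lines across the gap were also within the fold on SEMA4A, EPHB1, EFNB1 and SEMA6C, among others. The largest group was that of 14 members high in CHLA 05 alone, EFNA5, EFNB2, EPHA5, NRP1, PLXNA4, PLXND1, ROBO1, SEMA3A, SEMA3B, SEMA3F, SEMA3G, SLIT1, UNC5B and UNC5C, which is 31.1% of the 45, where 17.4% of all genes with a range over 1 had this split. Of the marker lists, S100B (astrocytes) and OLIG2 (oligodendrocyte lineage) had the same split, at 15.2 and 14.2 TPM in CHLA 05 and at most 1.54 TPM elsewhere, and their part in the result was not tested. The rest of these lists did not share it in full, since GFAP was at 151 TPM in CHLA 05 but also at 23.9 to 47.9 TPM in CHLA 02 and CHLA 04, AQP4 was at 34.1 to 51.9 TPM in these 3 lines, SOX10 was at 0.082 TPM at most, and MBP was at 31.9 TPM in CHLA 02, 23.9 and 22.3 TPM in CHLA 06, 0.267 TPM in CHLA 05 and 0 in CHLA 04. In a further 10 members CHLA 06 alone was low (22.2% against 15.4%), namely DCC, EFNA1, EFNA2, EPHA4, NTN1, SEMA3D, SEMA4A, SEMA4D, SEMA5B and SEMA6A. CHLA 02 and CHLA 06 together were high in 5 members, EPHA7, EPHB6, ROBO2, SEMA5A and SEMA6B (11.1% against 14.8%). COL1A1, DCN, EPCAM, KRT8 and KRT18, or 5 of the 6 fibroblast and epithelial markers, were also higher in both lines than in CHLA 04 and CHLA 05, PDGFRB was lower in both, and their part in the result was not tested. CHLA 04 and CHLA 05 together were high in 5, EFNB1, EPHB3, PLXNB1, SEMA6C and UNC5A (11.1% against 11.5%). CHLA 04 was high alone in EPHB1, NTN4, PLXNA2 and PLXNC1 (8.89% against 12.4%) and low alone in EPHA2, NRP2 and SLIT2 (6.67% against 9.92%), shares below those of all genes. No member was high in CHLA 06 alone, although 5.56% of all genes with a range over 1 were.

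CHLA 02 took an intermediate place. Among the 22 members on which CHLA 04 and CHLA 06 lay more than 2 apart, the level of CHLA 02 was between them in 22, and that of CHLA 05 in 11. Over all 1854 genes so far apart, CHLA 02 was between them in 93.7% and CHLA 05 in 71%. CHLA 02 stood alone above or below the other lines in 1.25% of all genes with a range over 1, where each other line did in 21% to 22.7%. On the TPM scale, with CHLA 06 at 0% and CHLA 04 at 100%, the CHLA 02 level of the 22 members ran from 7.23% (PLXNA2) to 92.5% (EFNA1), with a median of 37.8%. The median over the 1854 genes was 37.9%, with 23.2% and 54.1% at the quartiles. The members thus did not lie at 1 common position, and whether the CHLA 02 library holds RNA of another line was not tested.

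**Figure D4:**
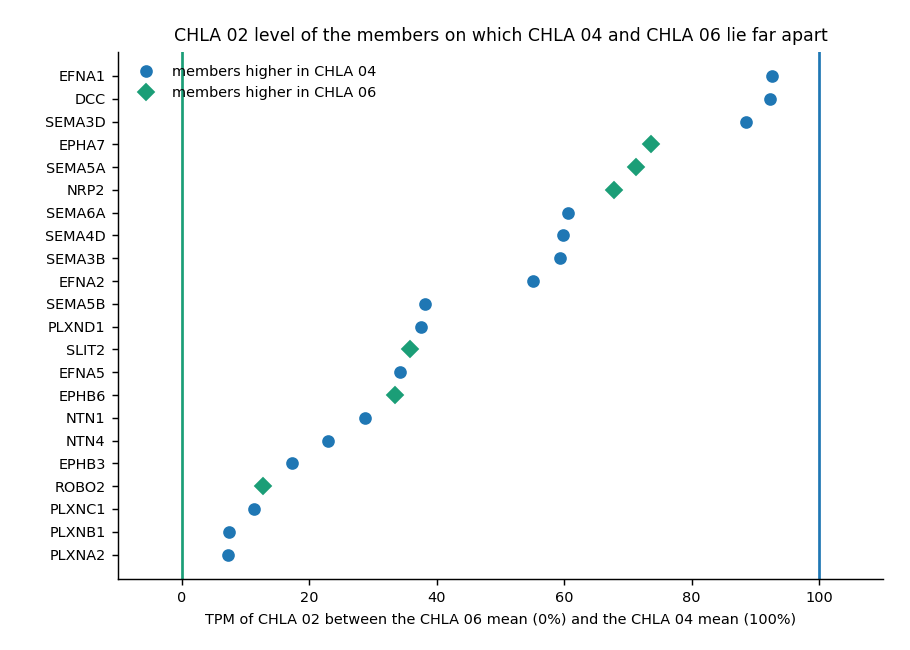
TPM of CHLA 02 for the 22 members on which CHLA 04 and CHLA 06 differ by over 2 on log2(TPM + 2), placed on a scale from the CHLA 06 mean (0%, green line) to the CHLA 04 mean (100%, blue line). Circles are members higher in CHLA 04 and diamonds members higher in CHLA 06; every point lies between the lines, from 7.23% to 92.5%.

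The technical replicates of CHLA 04 and CHLA 06 gave the technical spread only. Over 1 apart in CHLA 04 were 5 of 63 members, PLXNB3, ROBO3, SEMA3B, SEMA4D and SEMA6B, where 3.98% of all genes were. In CHLA 06 no member was, where 0.936% of all genes were. In CHLA 04 the median difference of replicate 2 from replicate 1 was -0.35 over the 63 members, while the median over all genes was -0.03. The CHLA 04 libraries had 10265899 and 17360741 reads, and the part of this in the lower values was not tested.

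The other genes of the pathway were taken from a list of 64, of which 61 were tested and 34, or 55.7%, had a range over 1 (42.2% of all genes did). By side, this was 7 of 9 genes around netrin, 9 of 13 around semaphorins, 4 of 7 around ephrins, 3 of 6 around slits and 11 of 26 shared effectors such as RAC1 and ROCK1. They were higher in 12 and lower in 2 for CHLA 04 minus CHLA 02, 17 and 3 for CHLA 05 minus CHLA 02, 4 and 12 for CHLA 06 minus CHLA 02, 10 and 5 for CHLA 05 minus CHLA 04, 6 and 19 for CHLA 06 minus CHLA 04, and 2 and 20 for CHLA 06 minus CHLA 05. The 3 with the widest range act downstream of semaphorins. CRMP1, a collapsin response mediator, was at 372 and 369.9 TPM in CHLA 04, 122 TPM in CHLA 05, 103 TPM in CHLA 02 and 2.30 and 4.15 TPM in CHLA 06. DPYSL5, of the same family, was at 97.6 and 91.9 TPM in CHLA 04, 35.8 TPM in CHLA 05, 16.5 TPM in CHLA 02 and 0.050 and 0.337 TPM in CHLA 06. MICAL2, a monooxygenase that disassembles actin filaments, ran the other way, at 344 and 288 TPM in CHLA 06, 155 TPM in CHLA 02, 6.77 TPM in CHLA 05 and 3.50 and 6.28 TPM in CHLA 04.

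The 69 members had 585 annotated transcripts. Of the 53 with several transcripts that reached 1 TPM in at least 2 libraries, 30 had the same most abundant transcript in each such library. That of NTN1 held 98.3% to 100% of the gene's TPM in the 4 libraries where it was at 1 TPM or more, and that of EPHA7 85.4% to 87.8% in CHLA 02 and CHLA 06. SLIT2 had 1 leading transcript throughout, with 64.3% to 67.5% of its TPM in CHLA 02, CHLA 05 and CHLA 06 and 40.0% and 30.5% in CHLA 04. In ROBO2 the leading transcript of CHLA 06 began at chr3:77039886 and that of CHLA 02 at chr3:75906802, with 28.8% to 30.5% and 27.3% of the gene's TPM. SEMA3B had 5 leading transcripts over 6 libraries and none above 27.8%.

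The promoter windows shown above belong to a set of 91 RefSeq promoters of 59 members, taken as the 250 bases upstream of each start. Where a member had several, the window nearest the start of its most abundant Ensembl transcript was shown, and the others had other counts. The windows shown for EPHA5 and SEMA5B hold 244 and 201 bases, since they were ended before the start of the most abundant Ensembl transcript, and over the whole 250 bases EPHA5 had 14 CG dinucleotides and 1 GGGCGG and SEMA5B 26 and 2. EFNB3, SEMA6B, SEMA3A, EPHA10, UNC5D, SEMA6A, NRP1, NTN3, NTN1 and UNC5B had no entry. The median of the 91 was 17 CG dinucleotides and 65.2% G and C, and over all 35116 promoters it was 11 and 58%. GGGCGG on either strand, which itself holds a CG, was in 70.3% of them and in 42.6% of all promoters. TATAAA was in 3.3% against 10.7%, and CCAAT in 29.7% against 32%, both on either strand. A match of letters is a description and not a site of binding.

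The study also counted reads on long terminal repeats (LTRs), the ends of endogenous retroviruses, in a separate mapping with TPM scaled over LTR elements alone. Within the spans of 46 members lay 2030 annotated LTR elements, of which 370 had a read in some library. They held 3224 and 2872 reads in the CHLA 06 replicates, 1949 reads in CHLA 02, 1200 reads in CHLA 05 and 892 and 1047 reads in the CHLA 04 replicates, which is 0.205% to 0.719% of the 355302 to 511408 LTR reads of a library. Elements in the orientation of the gene were 28.1% of the 2030 and held 91.6% to 95.1% of the reads. Elements within SLIT2 had 1047 and 1037 reads in the CHLA 06 replicates, 525 reads in CHLA 02, 187 reads in CHLA 05 and 15 and 8 reads in the CHLA 04 replicates. Those within ROBO2 had 842 and 921, 576, 24, and 7 and 2 reads in the same order of lines, and those within EPHA7 had 949 and 546, 163, 0, and 1 and 0 reads. NTN1 ran opposite, with 323 and 412 reads in the CHLA 04 replicates, 149 reads in CHLA 02, 49 reads in CHLA 05 and 7 and 5 reads in the CHLA 06 replicates. In each of these genes the line with the highest gene TPM also held the most LTR reads, and reads of intronic elements and of the unspliced gene transcript cannot be told apart in these files. This did not hold for every member. Elements within SEMA6A, a gene highest in CHLA 04, had 16 and 9 reads in the CHLA 06 replicates and 3 and 2 in the CHLA 04 replicates. The element with the most reads was MLT1H2 in SLIT2, at chr4:20304410-20304900 on the strand of the gene, with 548 and 450 reads in the CHLA 06 replicates, 260 reads in CHLA 02, 96 reads in CHLA 05 and 4 and 6 reads in the CHLA 04 replicates. The second was THE1C-int in EPHA7, at chr6:93386088-93387551, with 70 reads in CHLA 02, 0 in CHLA 04 and CHLA 05, and 460 and 269 in CHLA 06.

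**Figure D5:**
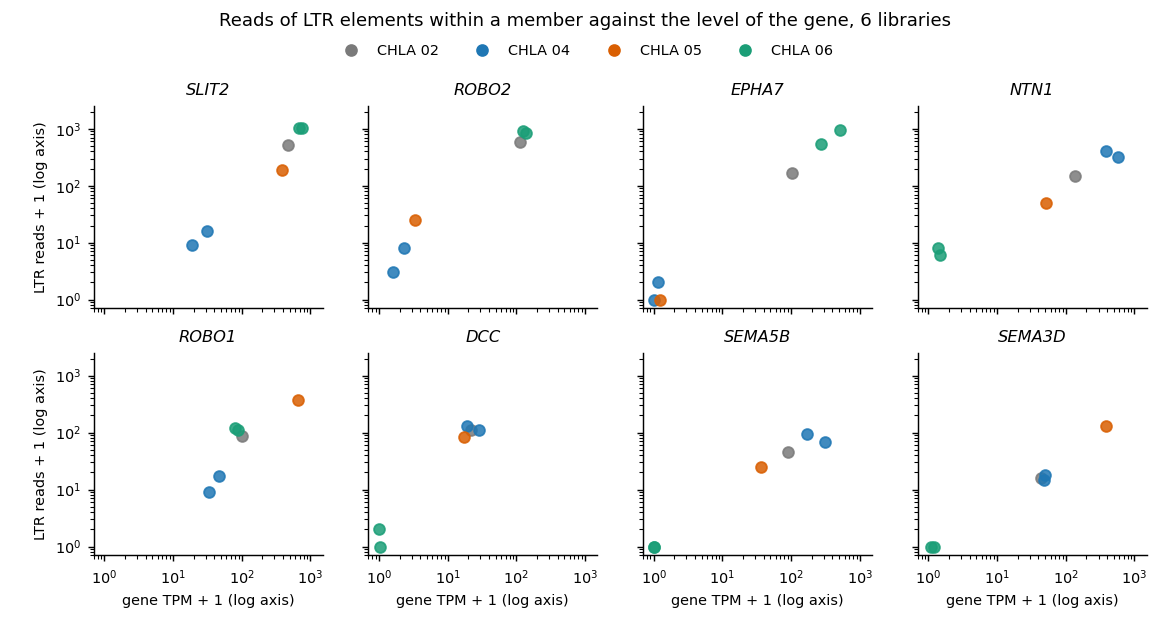
Reads of LTR elements within 8 members (vertical log axis, reads + 1) against TPM of the gene (horizontal log axis, TPM + 1), with 1 point per library colored by line. For SLIT2, ROBO2 and EPHA7 the CHLA 06 points are at the upper right, for NTN1 the CHLA 04 points, and for ROBO1 and SEMA3D the CHLA 05 point; libraries at the lower left have few reads of either kind.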

How the data were processed

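RNA of 4 AT/RT cell lines was measured in 6 libraries made with the Illumina TruSeq Stranded Total RNA protocol and sequenced as 125 bp paired ends on a HiSeq instrument. The authors used CASAVA 1.8.2, FastQC and Trimmomatic per the submitters' processing notes, aligned to GRCh38 in the CLCbio Genomics Workbench (RNA-Seq tool, default parameters), and deposited TPM per transcript of Ensembl release 82, and separately TPM per RepeatMasker LTR element. Other versions, and whether counting used strand, are not given in the sources used here. The TPM values had not been log-transformed, and technical replicates had not been pooled.

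Transcript TPM was summed by gene identifier, the technical replicates of a line were averaged, and differences were taken on log2(TPM + 2), with 2 as the pseudocount of the study. Genes at 1 TPM or more in a library, 16343 of 36532, were tested for a difference over 1. No p-value was computed, since each line had 1 biological sample. Reads were recovered from the value that 1 read contributes, and at least 99.2% of the values were whole within 0.02. Read counts of 0 allow 3 reads, which covers counting error only. The code for the calls and for the recovery of reads was tested on simulated data with known differences, which bears on the code and not on the differences between lines. Exons shared with other genes were read from the transcript coordinates. Values in every library are printed for members with a range over 2 and for the member of each family with the highest mean. Members at 0 to 1 TPM in every line are named together, and 3 further pathway genes are named for the widest ranges. Other members are named in ranges. The members and lists were chosen with earlier results of these data known. Alternatives tried were pseudocounts of 0.5 and 0.1, the highest technical replicate, quantile normalization, the most abundant transcript, each replicate left out, a fold over 2, other filters on low values and minimums of 0.5 and 5 TPM. Python 3.11.15 with numpy 2.4.6 and pandas 2.3.3 was used.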

Additional observations from a re-analysis of the deposited data

How the results depend on the processing

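The counts of members and pathway genes were recomputed under 134 alternatives, of which the 2 without CHLA 02 were chosen after seeing the data. Of these, 127 stayed within 1.5 times the count reported, but some could not change a count. Leaving out a replicate of CHLA 04 or CHLA 06, for example, cannot alter the count for CHLA 05 minus CHLA 02. The 127 is therefore no measure of how firm the counts are. With a fold over 2, 7 members were past it for CHLA 04 minus CHLA 02 (4.26% of all tested genes) and 17 for CHLA 05 minus CHLA 02 (6.72%). There were 7 for CHLA 06 minus CHLA 02 (3.05%), 17 for CHLA 05 minus CHLA 04 (5.24%) and 22 for CHLA 06 minus CHLA 05 (10.29%). The pathway genes with such a range were 17, where 16.2% of all tested genes had it, and a stricter fold must give fewer. A pseudocount of 0.1 widens differences at low TPM, and with it 35 members were past the fold for CHLA 04 minus CHLA 02. Of all tested genes 29.8% were past it then, against 16.9% with the pseudocount of 2. Leaving out 1 replicate gave 21 to 23 members for CHLA 04 minus CHLA 02, 24 to 27 for CHLA 05 minus CHLA 04, 31 to 33 for CHLA 06 minus CHLA 04 and 44 to 47 with a range over 1. In the same order, the shares of all tested genes were 16.96% to 21.22%, 15.99% to 21.43%, 28.25% to 33.75% and 41.24% to 47.32%. Of 133 named differences past the fold, 0 changed sign under any alternative. Another pseudocount cannot change a sign, and leaving out a replicate cannot move a pair without its line, so both figures are no measure of firmness. Over the 1197 alternatives of these differences, the value moved by at least the SD between technical replicates in 246. For CHLA 02 and CHLA 05, without replicates, the mean SD of CHLA 04 and CHLA 06 stood in. Under some alternative, 16 of the 133 differences fell under the fold, in EFNA5, EFNB1, EPHA2, NRP1, NRP2, PLXNC1, PLXND1, ROBO1, SEMA3B, SEMA3C, SEMA4D and SEMA5B. Of those whose loss on leaving out 1 library is not given above, EFNA5 fell to 0.91 for CHLA 04 minus CHLA 02 without CHLA 04 replicate 1, and PLXND1 to 0.81 without CHLA 04 replicate 2. For CHLA 06 minus CHLA 04, ROBO1 fell to 0.83 without CHLA 04 replicate 2 and to 0.97 without CHLA 06 replicate 1, EFNB1 was at -0.985 without CHLA 06 replicate 1, and SEMA3C was at -0.72 without CHLA 04 replicate 1 and -0.76 without CHLA 06 replicate 2. SEMA4D was at -0.97 for CHLA 06 minus CHLA 05 without CHLA 06 replicate 1. With the most abundant transcript only, the EFNA5 differences from CHLA 02 were 0.56 for CHLA 04 and -0.40 for CHLA 06, and the SEMA3B difference of CHLA 06 from CHLA 02 was -0.50. No paired analysis was possible because the replicate numbers mark technical replicates of single lines and no result comes from a test. Depth limits members under about 1 TPM, where a library held few reads, and no difference between lines has an error from separate cultures.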

Other observations

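Several members lie beside each other in the genome. SEMA3A and SEMA3D, 502828 bp apart on chromosome 7, were both highest in CHLA 05, but SEMA3A did not exceed 2.70 TPM while SEMA3D reached 381 TPM. SEMA3F and SEMA3B, 78482 bp apart on chromosome 3, were both highest in CHLA 05, at 7.98 and 202.7 TPM. For SEMA3F, however, CHLA 05 was within the fold of CHLA 02 (0.76) and of CHLA 04 (0.96). EFNA4, EFNA3 and EFNA1 follow each other on chromosome 1 with 9318 and 39921 bp between them, and of these EFNA1 alone had a range over 1. Elements in reverse orientation held part of the LTR reads in PLXNC1. In the CHLA 04 replicates 35 of 81 and 27 of 69 reads fell in elements on the strand of the gene. In the CHLA 06 replicates 4 of 45 and 2 of 26 reads did. PLXNC1 shares 4.04% of its exonic bases with CEP83 and RP11-1105G2.3 on the opposite strand, and their part in these reads was not tested.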
